A study of Mus musculus with 2 samples.

Results

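The genes described here are 10 markers of early astrocytes, namely Sox9, Nfia, Slc1a2, Glul, Aldoc, Aldh1l1, Gja1, Aqp4, Gfap and S100b. They were taken by symbol from the GENCODE vM1 gene models on mouse build mm9, and all 10 were found among the 37310 genes of that annotation. RNA-Seq reads over their exons and across their splice junctions were counted in both deposited read alignments. Both libraries were made from whole brain at E17.5, and each embryo was an F1 hybrid. BxC had a C57BL/6J mother and a CastEi/J father, and CxB had a CastEi/J mother and a C57BL/6J father. The labels give no genetic change and no treatment for either group. Each cross had 1 library, so there were no replicates, every statement concerns these 2 libraries, and no test between the crosses was possible. Intervals are exact at the 95% level and cover only the counting error of independent reads, because each cross had 1 library. Copies of 1 PCR product cannot be told from separate molecules, so the intervals are too narrow to the extent that reads are such copies.

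Astrocytes arise from radial glia late in embryonic brain development, after most neurons have been born. The transcription factors Sox9 and Nfia act early in this switch from neuron to glia production. Maturing astrocytes then take up glutamate through Slc1a2 and turn it into glutamine with Glul, couple to each other through gap junctions of Gja1, and place the water channel Aqp4 on their end-feet at blood vessels. Gfap, the classic filament protein of astrocytes, and the calcium-binding protein S100b accumulate mostly after birth in the mouse. Several of these genes, Glul, Gja1 and Sox9 among them, are also used by radial glia and other cells. In whole tissue, fewer cells of a type and less RNA per cell cannot be told apart.

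The deposited whole number on each alignment line was taken as a count of identical reads. On this reading the BxC library held 128944754 aligned reads of 36 bases at 31613696 distinct positions, and the CxB library held 109719746 reads at 27132743. Of these reads, 6.467% in BxC and 6.202% in CxB were spliced. Both totals are above the average yield per library in the study's text, and this difference was not resolved. Reads on chromosome Y numbered 1852 in BxC and 18212 in CxB. The study's text names the CxB brain as male and lists BxC brains of both sexes. The sex of this BxC embryo was not established, and if it was female, sex and cross cannot be told apart. Over all protein-coding genes 43.2% of exon reads in BxC and 42.6% in CxB lay on the sense strand, so reads of either strand were counted and a gene could not be separated from a partner on the opposite strand. Of the 10 genes the lowest sense shares were those of Nfia, 36.4% and 35.5%, and Sox9, 39.7% and 39.5%. The others ran from 41.9% to 45.7%.

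A spliced read joins the end of 1 exon to the start of the next, and sequences that separate transcripts of Gfap and Nfia, and a junction of Aldoc that the edge counts rest on, are shown first. Each line holds the last 15 exon bases before an intron in lower case and the first 15 bases of the next exon in capitals, read 5′ to 3′ along the gene from the mm9 genome. In Gfap the exons shared by both coding transcripts are followed by 1 of 2 alternative ends, an internal exon with a further last exon (transcript Gfap-001) or a single last exon (transcript Gfap-201).
Gfap-001, intron 7, chromosome 11, 102750835 to 102753224, minus strand: acctccagatccgagAAACCAGCCTGGACA
Gfap-001, intron 8, chromosome 11, 102750036 to 102750748, minus strand: atgcgggatggtgagGTCATTAAGGACTCG
Gfap-201, last intron, chromosome 11, 102752835 to 102753224, minus strand: acctccagatccgagGGGGCAAAAGCACCA
In Nfia, 2 alternative first exons join the same second exon, and the exon before the last one (chromosome 4, 97748416 to 97748507) can be included or skipped.
Nfia-005, first intron, chromosome 4, 97439603 to 97449772, plus strand: ttttacattgcaatgGATGAGTTTCATCCT
Nfia-001, first intron, chromosome 4, 97444686 to 97449772, plus strand: ctctgtctcacccagGATGAGTTTCATCCT
Nfia, into the exon before the last, chromosome 4, 97732138 to 97748415, plus strand: cccccacctcaccgaCCTACTCGACACCCA
Nfia, out of the exon before the last, chromosome 4, 97748508 to 97777908, plus strand: cctcaacagacacagTCCTGGTACCTGGGA
Nfia, skipping it, chromosome 4, 97732138 to 97777908, plus strand: cccccacctcaccgaTCCTGGTACCTGGGA
In Aldoc the last junction is shown with the unspliced genome sequence at the same acceptor, where the lower-case letters are the last 15 bases of the intron.
Aldoc, last junction, chromosome 11, 78139637 to 78139763, plus strand: atcaagcgggcagagATGAACGGGCTTGCA
Aldoc, unspliced, end of the same intron: cattccgttttgcagATGAACGGGCTTGCA
Every intron shown began with GT and ended with AG.

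All 10 genes were detected in both libraries, and their levels spanned 36.4-fold in BxC and 32.3-fold in CxB when every read was counted. Levels are given as RPKM, reads per kilobase of joined exons and per 1000000 aligned reads. The median of the 10 genes was 12.4 RPKM in BxC and 11.9 in CxB, against 5.44 in both libraries for the 13884 protein-coding genes with at least 100 reads in each. Glul and Gja1 stood highest and Gfap and S100b lowest, with only the last pair below the median of the protein-coding genes.

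**Figure D1:**
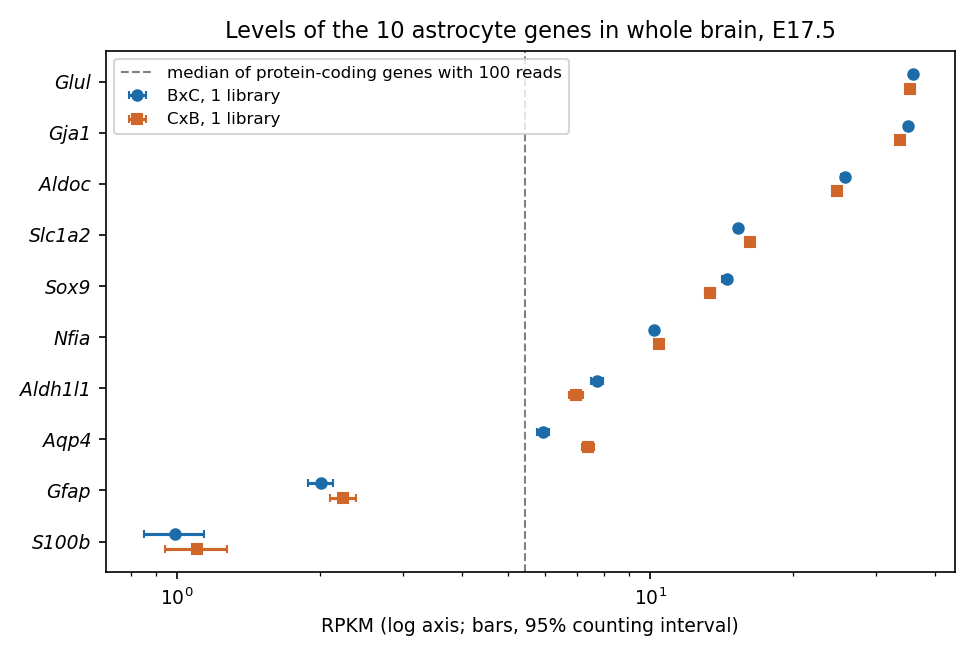
RPKM on a log axis for each of the 10 genes in the BxC library (circles) and the CxB library (squares), with 95% counting intervals as bars and the median of protein-coding genes with at least 100 reads as a dashed line. The genes run from 0.988 and 1.10 RPKM for S100b to 35.9 and 35.5 RPKM for Glul, and the points of the same gene in both libraries lie close together.

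Of the transcription factors, Sox9 (chromosome 11, 112643538 to 112649074, plus strand) had 7740 reads in BxC and 6074 in CxB. Its level was 14.5 RPKM (14.2 to 14.8) and 13.4 RPKM (13.1 to 13.7), ranks 3094 and 3346 of 22380 protein-coding genes. Nfia (chromosome 4, 97439425 to 97868605, plus strand), which spans 429 kb, had 14374 and 12539 reads, or 10.2 RPKM (10.02 to 10.35) and 10.4 RPKM (10.3 to 10.6). Per length, the Sox9 level stood above that of Nfia in both libraries, without overlap of the intervals.

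The genes of glutamate uptake and recycling carried many reads. Slc1a2, the glutamate transporter also called GLT-1 (chromosome 2, 102498816 to 102630941, plus strand), had the most reads of the 10 genes, 26003 and 23415, over 13.2 kb of joined exons. This came to 15.3 RPKM (15.1 to 15.5) in BxC and 16.2 RPKM (16.02 to 16.43) in CxB. Glul, glutamine synthetase (chromosome 1, 155747074 to 155756853, plus strand), had 15412 and 12951 reads and the highest level, 35.9 RPKM (35.3 to 36.5) and 35.5 RPKM (34.8 to 36.1). It ranked 1080 and 1078 of the protein-coding genes.

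The metabolic enzymes differed from each other. Aldoc, the brain aldolase of glycolysis (chromosome 11, 78136470 to 78141283, plus strand), stood at 25.8 RPKM (25.3 to 26.3) in BxC and 24.8 RPKM (24.3 to 25.3) in CxB, from 10860 and 8881 reads. Aldh1l1, a folate enzyme widely used to mark astrocytes (chromosome 6, 90436421 to 90550197, plus strand), stood at 7.73 RPKM (7.51 to 7.96) and 6.96 RPKM (6.73 to 7.199), from 4497 and 3447 reads. Aldoc thus lay above Aldh1l1 in both libraries, without overlap of the intervals.

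Of the membrane channels, Gja1, connexin 43 (chromosome 10, 56097106 to 56110225, plus strand), had 14042 and 11466 reads. Its level of 35.1 RPKM (34.5 to 35.7) in BxC overlapped that of Glul within the counting intervals, and its 33.7 RPKM (33.0 to 34.3) in CxB did not. Aqp4 (chromosome 18, 15547903 to 15562193, minus strand) had 4063 reads in BxC and 4304 in CxB. This was the only gene of the 10 with more reads in the smaller CxB library, and it stood at 5.93 RPKM (5.75 to 6.11) and 7.38 RPKM (7.16 to 7.60). Aldh1l1 stood above Aqp4 in BxC, while in CxB the order was the opposite and the intervals overlapped.

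The mature markers were the lowest. Gfap (chromosome 11, 102748650 to 102762226, minus strand) had 1093 and 1038 reads, or 2.01 RPKM (1.89 to 2.13) and 2.24 RPKM (2.11 to 2.38). S100b (chromosome 10, 75716598 to 75723904, plus strand) had 189 and 179 reads, or 0.988 RPKM (0.852 to 1.14) and 1.10 RPKM (0.944 to 1.27). It ranked 12288 and 12061 of the protein-coding genes. All other neighbours in the order of levels had intervals apart from each other.

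The order at the top depended on which exon bases were counted. Over coding bases only, Aldoc led with 50.2 RPKM in BxC and 48.1 in CxB, ahead of Gja1 with 32.5 and 31.3, Glul with 28.9 and 28.2 and Sox9 with 28.8 and 26.3. Gfap, at 3.10 and 3.62 RPKM, and S100b, at 1.25 and 1.47 RPKM, remained the lowest on this scale. When each distinct position counted once the span was narrower, from S100b at 2.86 RPKM in BxC and 2.51 in CxB to Gja1 at 22.9 and 21.9.

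To compare the crosses, the log2 ratio of CxB over BxC RPM (reads per 1000000 aligned reads) was formed for every gene with at least 100 reads in each library. None of the 10 genes was past 1.5-fold in either direction, beside 1.1% of the 15427 genes tested. The share of all genes was 0.473% for those higher in CxB and 0.622% for those lower in CxB, beside 0 of the 10 genes each way. Of the 10 genes, 5 were above 0 and 5 below, with a median log2 ratio of 0.0089, and the median of all genes tested was -0.0011. The counting interval left out 0 for 8 of the 10 genes and for 51.3% of all genes tested. The interval narrows with the number of reads, and these shares were not compared at matched depth.

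Aqp4 had the highest log2 ratio, 0.32 (0.25 to 0.38), from 31.5 RPM in BxC and 39.2 in CxB. This placed it at percentile 96.2 of all genes tested, inside the central 95% range of -0.38 to 0.37. That range pools genes of every depth from 100 reads up, and Aqp4 was not compared with genes of its own depth. When each distinct read position counted once, its log2 ratio was 0.16. Gfap stood at 0.16 (0.03 to 0.28) and S100b at 0.15 (-0.15 to 0.46). The S100b value was -0.19 over distinct positions, so these counts gave it no direction.

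The other 7 genes lay between -0.15 and 0.08 on the log2 scale. Slc1a2 stood at 0.08 (0.06 to 0.11), Nfia at 0.04 (0.00 to 0.07) and Glul at -0.02 (-0.05 to 0.02). Aldoc and Gja1 were both at -0.06, Sox9 at -0.12 (-0.17 to -0.07) and Aldh1l1 at -0.15 (-0.22 to -0.09). Over distinct positions the signs of Aldoc, Glul and Sox9 turned, to 0.06, 0.02 and 0.01. A position counts once however many reads it holds, so this count saturates in deeply read genes. Aldoc, Glul and Sox9 had 6.44, 7.56 and 4.96 reads per distinct position in BxC and 5.89, 7.29 and 4.52 in CxB. Whether read copies or saturation turned the signs was not tested. Over the coding part alone, Slc1a2 and Nfia had log2 ratios of mean depth below 0, at -0.11 and -0.05.

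**Figure D2:**
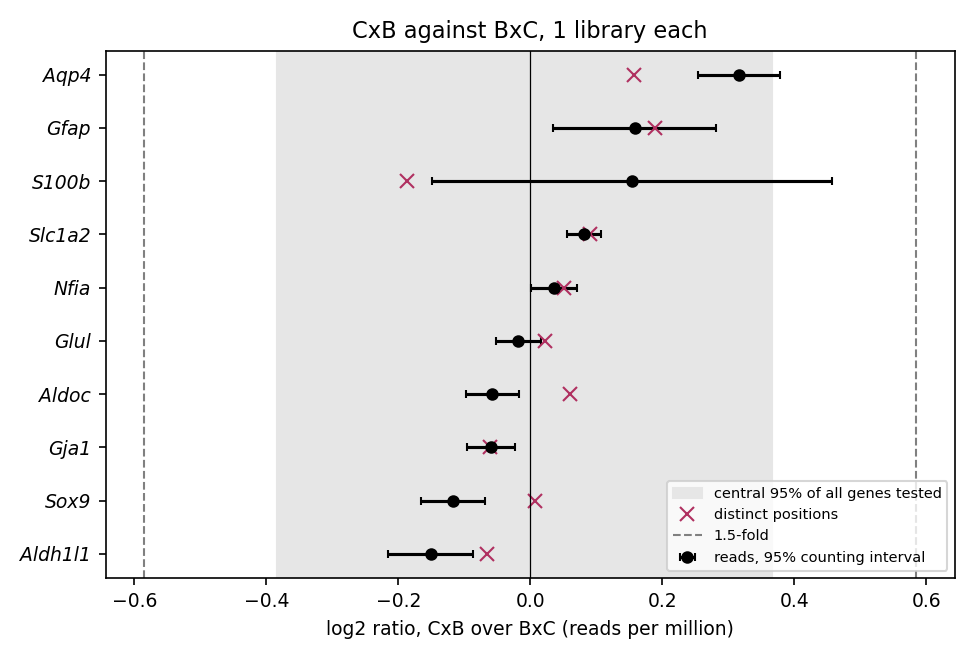
Log2 ratio of CxB over BxC RPM for the 10 genes (black points, 95% counting intervals as bars) and the same ratio over distinct positions (crosses). The shaded band is the central 95% of the 15427 genes tested, -0.38 to 0.37, and the dashed lines mark 1.5-fold. The band comes from read ratios of genes of every depth tested, not from distinct positions. All black points and crosses lie inside it.

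In Aqp4 the higher CxB count lay mostly after the coding part. Over the 1068 coding bases of Aqp4-202, the longest coding transcript, the mean depth, the number of reads over a base, was 49.7 in BxC and 41.5 in CxB, a log2 ratio of -0.03 after scaling to the library totals. Over the 4057 bases after the coding part it was 20.6 and 24.8, a log2 ratio of 0.50. Depth scaled in this way was higher in CxB in 5 of 11 coding windows of 100 bases and in 32 of 40 windows outside the coding part. By RPKM over coding bases Aqp4 stood at 11.2 in BxC and 11.4 in CxB, so the sign over its coding part depended on the measure. A log2 ratio of mean depth below 0 over the coding part and above 0 after it was also seen in 3 other genes. It was -0.11 over the coding part and 0.13 after it in Slc1a2, -0.05 and 0.11 in Nfia, and -0.13 and 0.27 in Sox9. The other 6 genes had the same sign over both parts, with 0.24 and 0.10 in Gfap and 0.33 and 0.21 in S100b. Both values were below 0 in Aldoc, Glul, Gja1 and Aldh1l1. Depth by part was not measured over all genes, so whether such signs are particular to these genes was not tested. In Slc1a2, depth was higher in CxB in 2 of 17 coding windows and in 63 of 98 windows outside the coding part. The widest gap in Aqp4 was in single windows, such as that starting 1600 bases from the 5′ end with a depth of 48.0 in BxC and 108 in CxB. The most used read start of Aqp4 held 91 reads in BxC and 153 in CxB.

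Markers of the other cell types of the brain were read in the same libraries, to place the 10 genes. The list of 24 other astrocyte genes had a median of 14.8 RPKM in BxC and 16.4 in CxB, from Cldn10 at 0.602 and 0.721 to Apoe, a lipid carrier, at 125 and 132. None of the 24 was past 1.5-fold, and the median log2 ratio was 0.05, with 15 above 0 and 9 below. The 12 genes of radial glia and progenitors had a median of 16.4 and 17.1 RPKM, with the fatty acid binding protein Fabp7 highest at 152 and 160 and Hes1 lowest at 1.71 in both libraries. None of them was past 1.5-fold, and their median log2 ratio was 0.02.

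The neuron genes stood above all other lists, with a median of 63.6 RPKM in BxC and 63.3 in CxB. They ranged from Snap25 at 16.4 and 16.9 to the tubulin Tubb3 at 974 and 840 RPKM. The 10 neuron genes summed to 6051 and 5803 RPM, against 762 and 768 for the 10 astrocyte genes. None of the neuron genes was past 1.5-fold, and their median log2 ratio was 0.0011.

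The lists of the other cell types had lower medians. The 8 oligodendrocyte lineage genes had a median of 8.27 and 7.56 RPKM, the 8 endothelial and pericyte genes 5.63 and 5.17, the 8 microglia genes 3.10 and 2.91, and the 6 choroid plexus genes 4.10 and 4.32. Their median log2 ratios were -0.07, -0.10, -0.04 and 0.07, the microglia value over the 7 genes tested. The microglia gene Aif1, with 90 and 77 reads, was below the minimum and gave no ratio. Of these lists only microglia held a gene past 1.5-fold, Itgam, with 281 reads in BxC and 151 in CxB and a log2 ratio of -0.66 (-0.96 to -0.37). Of the oligodendrocyte lineage genes 2 were above 0 and 6 below, with Olig1 the highest in level at 30.1 and 37.6 RPKM. The choroid plexus list ran from Kl at 0.314 and 0.294 RPKM to Ttr, the thyroid hormone carrier transthyretin, at 253 and 281, above every one of the 10 astrocyte genes. No marker of any list was at 0 in either library. Whether the makeup of cells differed between the brains was not tested.

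**Figure D3:**
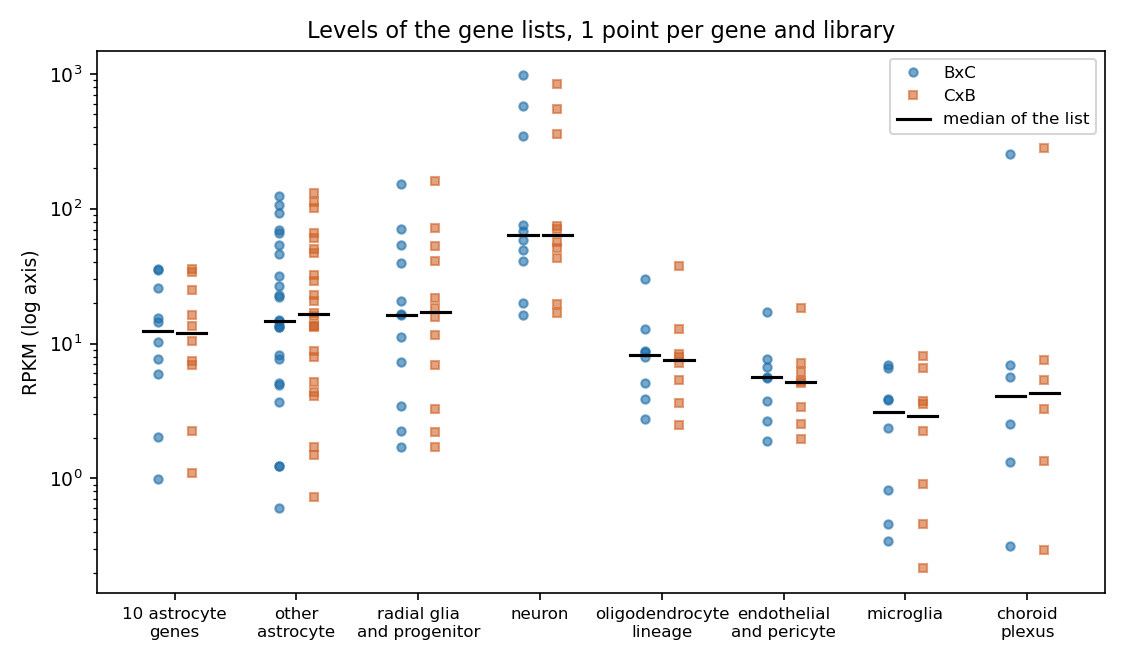
RPKM on a log axis for each gene of the lists, with BxC as circles, CxB as squares and the median of each list as a black bar. The 10 astrocyte genes have medians of 12.4 and 11.9, the neuron genes 63.6 and 63.3 and the microglia genes 3.10 and 2.91.

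Family relatives gave each of the 10 genes a reference in the same libraries. Over all annotated exon bases Gfap was the lowest of the intermediate filament genes listed. Vim, the filament protein of radial glia, stood at 53.9 RPKM in BxC and 53.3 in CxB, 26.8 and 23.8 times the Gfap level. Nes, the progenitor filament protein, stood 5.56 and 5.15 times above Gfap. Over the longest coding transcript alone Gfap stood at 3.13 and 3.51 RPKM, so these multiples depended on the exon bases counted. The filament gene Synm stood at 2.54 and 2.69 RPKM over all its exons, so the lowest rank of Gfap also rests on that choice. The neuronal filament gene Ina was the highest of all relatives, at 156 and 143 RPKM.

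Over all annotated exon bases S100b was likewise below each of the 6 S100 relatives, from S100a6 at 1.38 and 1.89 RPKM to S100a10 at 14.6 and 14.3. S100a11 was the only one of 34 relatives tested that was past 1.5-fold, with 828 reads in BxC and 441 in CxB and a log2 ratio of -0.68 (-0.85 to -0.51). Of the 37 relatives, 3 had fewer than 100 reads in a library and gave no ratio.

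Among the Slc1 glutamate transporters listed, Slc1a2 was second to Slc1a3, the radial glia transporter also called GLAST, which stood 1.34 and 1.35 times higher. Slc1a2 was above the neuronal transporters Slc1a1, by 3.13 and 2.69 times, and Slc1a6, by 2.48 and 2.82 times. Glul was close to Glud1, glutamate dehydrogenase, with ratios of 1.16 and 1.08. Aldoa, the ubiquitous aldolase, stood 2.90 and 2.64 times above Aldoc over all exons, at 74.8 and 65.5 RPKM. This multiple rests on all annotated Aldoc exon bases, and the Aldoc level over coding bases was 50.2 and 48.1 RPKM. The multiples of Slc1a2 and Glul rest on all annotated exon bases too. Over coding bases Slc1a2 stood at 21.6 RPKM in BxC and 19.8 in CxB, and Glul at 28.9 and 28.2.

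Gja1 was the highest of the 5 connexins listed. It stood 3.32 and 2.93 times above Gjd2, the neuronal connexin 36, and 6.93 and 8.31 times above Gjb6, the other main astrocyte connexin. Aqp4 and the choroid plexus channel Aqp1 were near each other, with Aqp1 at 6.92 and 7.51 RPKM. Aldh1l1 and its mitochondrial relative Aldh1l2, at 8.54 and 7.49 RPKM, were also close. Both comparisons rest on all annotated exon bases. Over coding bases Aqp4 stood at 11.2 RPKM in BxC and 11.4 in CxB, and Aldh1l1 at 11.3 and 10.2. Coding-base levels of the relatives are not given here.

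Among the transcription factors, Sox9 stood 1.27 and 1.04 times above Sox8 and 1.68 and 1.59 times above Sox10. In CxB Sox9 and Sox8 were thus near each other, at 13.4 and 12.9 RPKM. These multiples rest on all annotated exon bases, and the Sox9 level over coding bases was 28.8 RPKM in BxC and 26.3 in CxB. Nfia was lower than Nfib, which stood 1.69 and 1.61 times higher. Nfix stood 10.21 and 11.05 times above Nfia, at 104 and 115 RPKM. The Nfia level over coding bases was 16.7 RPKM in BxC and 16.3 in CxB, so its multiples rest on the same choice.

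The gene models of the 10 genes hold 115 annotated introns of at least 36 bases, and 52 of them had at least 10 spliced reads in each library. A further 35 had no read in either library. A 0 allows up to 3 reads, and the study aligned to a set of junctions of its own, so an intron missing from that set would also be at 0. The longest coding transcripts hold 74 of the introns, and 51 of these had at least 10 reads in each library. Spliced reads at annotated introns numbered 4414 in BxC and 3628 in CxB, 4.49% and 4.30% of the exon reads of the 10 genes.

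**Figure D4:**
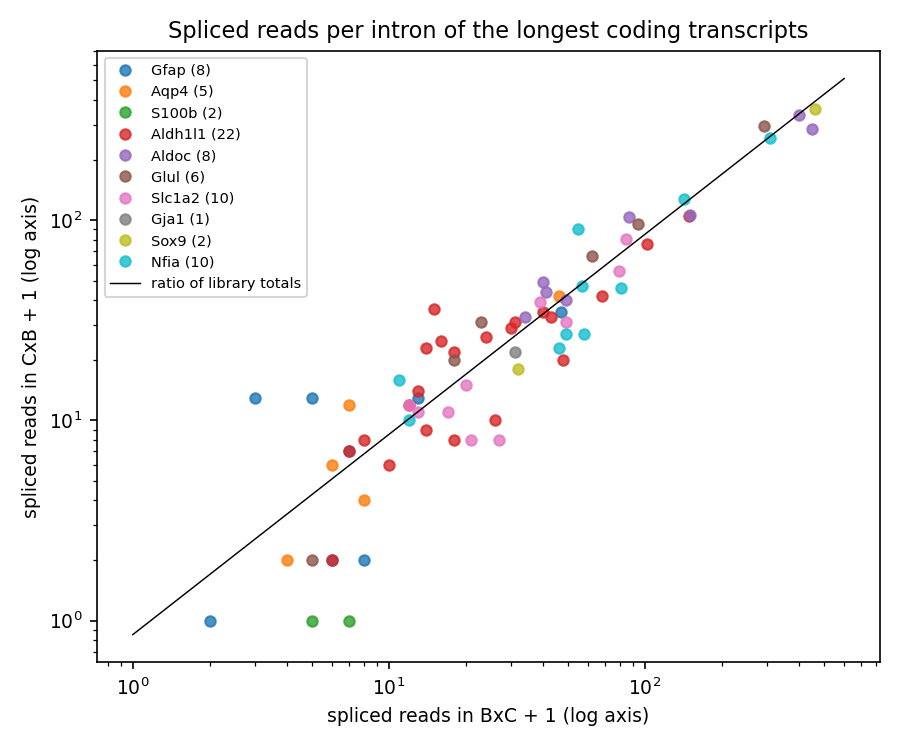
Spliced reads plus 1 in BxC and CxB, both on log axes, with 1 point for each of the 74 introns of the longest coding transcripts, coloured by gene. The line is the ratio of the library totals, and the points lie on both sides of it. They range from 1 read in BxC and 0 in CxB in Gfap intron 7 to 461 and 358 in the second Sox9 intron. Both S100b introns were also at 0 in CxB.

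The share of spliced reads followed the gene. It was 15.4% and 16.2% in Aldh1l1, which has 23 exons, and 11.4% and 11.1% in Aldoc. It was 0.214% and 0.183% in Gja1, which has 1 intron with 30 and 21 spliced reads. Within a gene the introns differed widely. The first intron of Sox9 had 31 and 17 reads and the second 461 and 358.

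S100b had 10 spliced reads in BxC, 6 over the first intron and 4 over the second, and none in CxB. At its 179 exon reads in CxB, splicing of S100b was therefore not seen in that library, and the 0 allows up to 3 reads.

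Splice choices went mostly to 1 side. In Slc1a2 all 83 and 80 reads into the second exon came from the first exon of the longest coding transcript (chromosome 2, intron 102499459 to 102576100). The 8 other annotated introns that reach this exon had none. In Glul the first intron took all 292 and 296 reads into its acceptor, and 2 alternative annotated introns took none. In Aqp4, 126 of 129 reads in BxC (97.7%, 93.4 to 99.5) and 100 of 101 in CxB (99.0%, 94.6 to 100) crossed the intron 15558512 to 15562108 on chromosome 18, which starts from the first exon of Aqp4-201 and Aqp4-203. The route through the first exons of the longest coding transcript, Aqp4-202, had 7 and 3 reads at its first intron and 3 reads and 1 read at its second.

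In Nfia the second of the first exons printed above took most reads. Over the annotated introns into this acceptor it gave 54 of 61 reads in BxC (88.5%, 77.8 to 95.3) and 89 of 100 in CxB (89.0%, 81.2 to 94.4). The other first exon had 7 and 11 reads at 2 and 4 distinct positions. An unannotated junction into the same acceptor had 3 reads and 1 read. The exon before the last was joined to the one upstream by 307 of 318 reads in BxC (96.5%, 93.9 to 98.3) and 256 of 259 in CxB (98.8%, 96.7 to 99.8), and the rest skipped it. Read from the last exon, inclusion had 11 of 22 reads (50%, 28.2 to 71.8) and 9 of 12 (75.0%, 42.8 to 94.5). The junction out of the included exon thus had 11 and 9 reads where the junction into it had 307 and 256, so the share of inclusion depended on the side from which it was counted. Over distinct positions, inclusion was 89.7% and 94.6% by the upstream side and 73.3% and 77.8% by the downstream side.

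Gfap reads favoured the end of Gfap-001, which encodes the major alpha form of 430 residues, over that of Gfap-201, which encodes the delta form of 428. The 1472 bases found in Gfap-001 alone had 579 reads in BxC (533 to 628) and 523 in CxB (479 to 570). The 1424 bases of Gfap-201 alone had 23 reads (14.6 to 34.5) and 18 reads (10.7 to 28.4). This was 16.2 and 12.6 reads per kilobase, near the 14.0 (11.7 to 16.7) and 8.55 (6.75 to 10.7) of reads wholly inside Gfap introns, against 393 and 355 for Gfap-001 alone. Of the junctions printed above, Gfap-001 intron 8 had 46 and 34 reads. The junction into its internal exon had 1 and 0, and that of Gfap-201 had 0 in both, so the choice at the shared exon itself was not measurable at this depth.

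Depth along the transcripts was uneven, and the shapes were alike in both libraries. Pearson's r between the libraries over windows of 100 bases of the same gene was 0.67 over 14 windows in S100b, 0.87 over 26 in Gfap and 0.94 to 0.98 in the other 8 genes. Windows share reads with their neighbours and both libraries share the base composition, so r is a description only.

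Several genes had few reads over their annotated 3′ ends. In Sox9 the mean depth over the coding part was 133 in BxC and 103 in CxB, and over the 2250 bases after it 8.22 and 8.41, lower by 16.2 and 12.3 times. In Aldoc the depth fell at the end of the shorter transcript Aldoc-002, from 115 and 114 in the 200 bases before it to 4.13 and 3.77 over the 1021 bases after it. In Aldh1l1 it fell at the end of Aldh1l1-002, from 69.2 and 56.7 to 2.91 and 2.04.

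The long 3′ ends of other genes were covered. Slc1a2 had a mean depth of 74.0 and 69.2 over the 9250 bases after its coding part, against 95.9 and 75.5 over the coding part. Nfia had 43.2 and 39.6 over 7636 such bases. Glul was deepest near its end, with 462 and 375 over the last 500 bases against 129 and 107 over the coding part. The RPKM of a gene therefore mixed covered and nearly uncovered exon bases, to a degree that differed between the 10 genes.

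**Figure D5:**
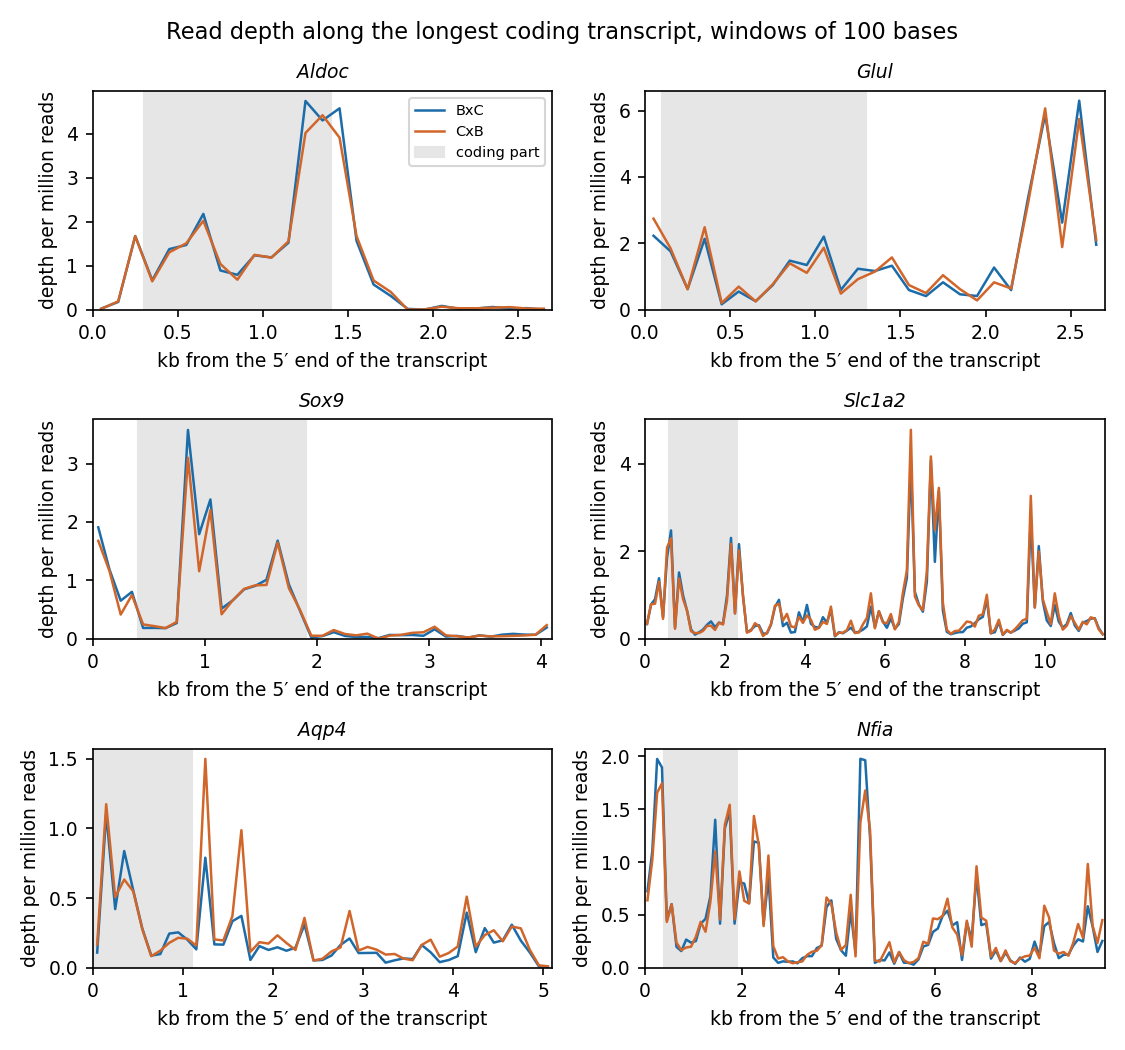
Read depth per 1000000 aligned reads in windows of 100 bases along the longest coding transcript of 6 genes, from the 5′ end, with the coding part shaded. In both libraries Sox9 drops after the coding part, Aldoc drops to near 0 before its annotated end, Glul peaks near its end, Slc1a2 and Nfia are covered to the end, and CxB lies above BxC in several Aqp4 windows after the coding part.

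Introns held few reads for most of the 10 genes. Reads wholly inside introns, per kilobase, were 0.510% of the exon level in BxC and 0.494% in CxB for Gja1 and 0.708% and 0.690% for Slc1a2. They were 5.40% and 3.47% for Gfap, 7.46% and 6.70% for Sox9 and 10.3% and 10.2% for S100b. The median of 12738 protein-coding genes was 3.91% and 3.90%. The long Nfia introns held 8456 and 7825 reads, 1.54% and 1.64% of its exon level per kilobase.

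At intron edges a different class of reads appeared. Unspliced reads that reached 1 to 4 bases into an intron of the longest coding transcripts numbered 1872 in BxC and 1486 in CxB. Of these, 936 and 721 lay at a single site, the end of the last Aldoc intron. Over all these introns, unspliced reads that reached 5 to 35 bases numbered 100 and 75. No spliced read of either library had fewer than 5 bases on a side. The end of the last Aldoc intron held 716 and 563 reads with exactly 4 intron bases, more than the 450 and 286 spliced reads of that junction. The last 4 intron bases and the last 4 bases of the exon before it, printed above in both Aldoc lines, differ at 2 bases and share the other 2.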

How the data were processed

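Whole brain mRNA of 1 BxC and 1 CxB embryo was sequenced as single reads of 36 bases. By the study's methods and the submitters' processing notes, the authors aligned reads with Novoalign to gene models, junction sequences and the genome, converted them to mm9 coordinates and kept unique alignments. Which alignment was deposited, and its version, is not given in the sources used here. The deposited read counts are whole numbers per alignment line, used as the number of identical reads. This meaning was inferred from the values, and the resulting totals exceed the average yield per library that the study's text gives. All read counts, levels, minimums and intervals here rest on it. No normalization had been applied. The labels name an unstranded kit and the study's methods a strand-specific one. The deposited catalog of imprinted genes and its readme were not used.

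Reads were summed where a block overlapped the joined GENCODE vM1 exons (Python 3.11.15, NumPy 2.4.6, SciPy 1.17.1), on either strand, and divided by all aligned reads of the library (RPM) and by exon length (RPKM). Levels carry exact Poisson intervals and shares and ratios Clopper-Pearson intervals, at 95%. Ratios need 100 reads in each library, a call needs 1.5-fold, and a splice choice needs 10 reads in each library. On simulated counts for the CxB over BxC comparison over 15427 genes, 95.4% of intervals held the true ratio. The counts were drawn as independent reads, as the intervals assume, so this checked the calculation and not the effect of read copies. The 10 genes are all named; of the lists, the highest and lowest and any gene past the fold are named, and others were named after their values were seen. Some relatives are not reported here. The genes and lists were chosen with earlier results of these data known. Alternatives were other scalings (edgeR 4.0.16 TMM factors, DESeq2 1.42.0 size factors, leaving out chromosome X and mitochondrial reads), distinct positions, the sense strand, other exon definitions and other junction minimums. Sequences came from the NCBIM37 genome, which is mm9; none is printed for Aqp4.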

Additional observations from a re-analysis of the deposited data

How the results depend on the processing

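No paired analysis was possible because each cross has 1 library, and for the same reason no library could be left out. The count of astrocyte genes past 1.5-fold was 0 under each of the 8 alternatives run. Their median log2 ratio ran from -0.05 on the sense strand, where S100b had too few reads and 9 genes were tested, to 0.04 over distinct positions. The median of all genes stayed within 0.1 of 0 under the 7 of these that kept the minimum of reads. The 52 introns with at least 10 reads in each library became 45 with at least 8 bases on either side, 37 over distinct positions and 68 with a minimum of 3 reads. Of the single levels in RPKM, the largest shifts came from counting coding bases only. Sox9 in BxC was 14.5 RPKM over all exons and 28.8 over coding bases. Levels over distinct positions were scaled to the distinct positions of the library, so their size cannot be compared with RPKM. Counting any overlap with an intron, an alternative added after the data were seen, raised the Aldoc intron level from 2.79% to 26.6% of its exon level in BxC. With at least 8 bases on either side, reads of the rarer Nfia first exon went from 7 to 0 in BxC and from 11 to 2 in CxB, and those of the main first exon from 54 to 10 and from 89 to 11. S100b, with 189 and 179 reads, set the limit of depth.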
